A study of Mus musculus with 24 samples.

Results

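Gpnmb, Atp6v0d2, Ms4a7, Lyz2, Cd68, Spp1, Apoe, Lgals3, Trem2 and Cd63 are 10 genes of macrophages, lysosomes and lipid handling, picked by gene symbol because several of them were bright or altered in cells from medulloblastomas. Of the 10, 9 had a probe set that names a single gene and are described here, out of 22180 genes measured; Spp1, which encodes osteopontin, was not analysed here. The choice rested on earlier results of these comparisons, so the levels and differences of the 9 genes are given as a description with no test. Arrays of 3 groups were compared, 8 in each, all from cells taken out of papain-dissociated tissue with magnetic beads against Cd144 and Cd105, surface proteins of endothelium encoded by Cdh5 and Eng. Macrophage transcripts are read here as RNA of cells taken along with the endothelium. Hindbrain came from adult wild-type mice. Shh-medulloblastoma came from mice with the genotype Ptch+/- and Ink4c-/-. Wnt-medulloblastoma came from mice in which Blbp-Cre, a recombinase driven by a promoter of neural progenitors, acted on 3 floxed genes, with the alleles Ctnnb1 +/Exon3 flox and Trp53 flox/flox together with Pik3ca +/flox. The strain background of the mice was mixed. No sequencing or scan batch is named in the labels, and the arrays are labelled as biological replicates.

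Macrophages take up dying cells and lipoproteins and break them down in lysosomes, which a proton pump, the V-ATPase, keeps acidic. Microglia are the resident macrophages of the brain, and monocytes from blood can also become macrophages in a tumour. Macrophages loaded with lipid or debris are known to raise Gpnmb, Spp1, Lgals3, Cd63 and Apoe, in part through the receptor Trem2 and its adaptor Tyrobp, while factors of the Mitf and Tfe family drive lysosomal genes.

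Values are the deposited log2 expression values, and ± after a difference is its standard error from limma. The endothelial markers were bright on every array: the mean of 13 lay between 11.62 and 11.97 in hindbrain, between 11.40 and 11.88 in Shh and between 10.05 and 11.32 in Wnt arrays. Myeloid markers were also clearly present. The mean of 18 pan-myeloid genes lay between 10.04 and 11.13 in hindbrain, between 8.08 and 10.38 in Shh and between 7.46 and 9.50 in Wnt arrays. Its group mean was thus lower in both tumours, at 9.48 in Shh and 8.72 in Wnt against 10.55. All 13 endothelial markers were called lower by limma in Wnt arrays than in hindbrain, beside 22.0% of all genes. Fewer cells of a type and less RNA per cell cannot be told apart in these bulk samples. The name tumour macrophage genes was borne out for only part of the list: Gpnmb was brighter in both tumours, but Trem2 and Cd68 were lower in Wnt than in hindbrain, and Apoe overlapped across the groups. As a gauge of background, 92 ERCC probe sets, controls that match no mouse gene, had a 95th percentile of 5.24 over their means.

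Stretches around the transcription start are shown for 4 genes: Gpnmb, higher in both tumours, Ms4a7, higher in Shh, and Cd68 and Trem2, lower in Wnt. They come from RefSeq (GRCm38.p6) and run from 250 bases before the start to 50 after it. Capitals mark matches, on either strand, to the AP-1 site TGANTCA and to the PU.1 core GAGGAA, whose reverse complement is TTCCTC. PU.1, encoded by Spi1, is the main transcription factor of myeloid cells. Gpnmb lies on the plus strand at chr6:49036268-49036567, the first Ms4a7 window on the minus strand at chr19:11336097-11336396, Cd68 on the minus strand at chr11:69666121-69666420 and Trem2 on the plus strand at chr17:48346151-48346450.
Gpnmb: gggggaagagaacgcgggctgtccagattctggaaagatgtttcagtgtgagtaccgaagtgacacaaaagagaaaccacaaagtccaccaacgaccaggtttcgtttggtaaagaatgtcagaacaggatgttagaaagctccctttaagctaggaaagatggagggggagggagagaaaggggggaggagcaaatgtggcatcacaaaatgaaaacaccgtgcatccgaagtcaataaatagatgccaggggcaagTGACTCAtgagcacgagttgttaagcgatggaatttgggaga
Ms4a7: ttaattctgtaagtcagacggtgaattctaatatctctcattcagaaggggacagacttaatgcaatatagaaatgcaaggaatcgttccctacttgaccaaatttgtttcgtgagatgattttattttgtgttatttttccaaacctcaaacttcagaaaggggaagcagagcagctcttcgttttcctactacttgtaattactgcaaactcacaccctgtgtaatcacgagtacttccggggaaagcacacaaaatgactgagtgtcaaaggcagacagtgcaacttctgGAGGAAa
Cd68: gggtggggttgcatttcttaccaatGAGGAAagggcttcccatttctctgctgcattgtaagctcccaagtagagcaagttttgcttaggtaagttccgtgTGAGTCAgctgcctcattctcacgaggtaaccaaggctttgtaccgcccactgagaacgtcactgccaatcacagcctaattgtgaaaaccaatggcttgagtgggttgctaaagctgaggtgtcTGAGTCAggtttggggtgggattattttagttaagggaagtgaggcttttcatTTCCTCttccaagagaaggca
Trem2: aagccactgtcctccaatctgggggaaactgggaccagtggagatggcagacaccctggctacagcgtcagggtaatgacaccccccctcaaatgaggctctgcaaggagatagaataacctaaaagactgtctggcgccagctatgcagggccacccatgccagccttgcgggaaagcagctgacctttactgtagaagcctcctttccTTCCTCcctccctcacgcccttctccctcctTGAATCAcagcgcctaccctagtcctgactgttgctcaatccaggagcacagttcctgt
The Gpnmb window held 1 AP-1 match, TGACTCA, from 8 to 14 bases after the start, and no PU.1 match. Ms4a7 held a PU.1 match from 43 to 48 bases after the start, and its second RefSeq start, not shown, had an AP-1 match and 1 match to the M-box core CATGTG that Mitf binds. Cd68 held 2 AP-1 and 2 PU.1 matches, and Trem2 1 of each. The E-box CACGTG, the core of the motif bound by Tfeb, was in none of the windows of the 9 listed genes that have one, and Atp6v0d2 had no window in the table. Among 32851 such windows of all genes, 7.81% held the AP-1 site, 28.3% the PU.1 core, 14.2% the M-box core and 7.15% the E-box, so these letters are common and a match does not show a bound site.

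Gpnmb encodes a transmembrane glycoprotein of late endosomes and of lipid-laden macrophages. In hindbrain its lowest, median and highest values were 5.97, 6.43 and 7.10. In Shh arrays these were 9.78, 11.23 and 12.06, and in Wnt arrays 9.17, 10.82 and 12.35. Every tumour array of either kind lay above every hindbrain array, with no overlap, and the tumour groups overlapped each other. The difference from hindbrain was 4.73 ± 0.41 in Shh, which ranked 2 among the rises of all genes, and 4.32 ± 0.41 in Wnt, a 20.0-fold higher level. Wnt minus Shh was -0.41 ± 0.41, and this sign turned when each array was set relative to its endothelial or its pan-myeloid marker mean. Since Gpnmb is also a gene of pigment cells, melanocyte markers were read beside it: of 9, 2 were higher and 1 lower in Shh, and 2 were higher and 0 lower in Wnt arrays (0 lower also at an unadjusted p under 0.05 by limma). Over all genes limma called 18.9% higher and 18.9% lower in Shh, and 23.2% higher and 22.0% lower in Wnt, at a Benjamini-Hochberg adjusted p under 0.05. Kit, a growth factor receptor of several cell types, rose by 3.18 ± 0.19 in Shh and 2.23 ± 0.19 in Wnt, and Slc45a2, a melanosome transporter, rose by 2.49 ± 0.65 in Wnt. The Wnt arrays differed widely in Slc45a2, with an SD of 2.40 against 0.16 in hindbrain, and the groups overlapped. Tyr, the enzyme that starts melanin synthesis, had group means of 3.64 to 3.84, within the control range. The part of pigment cells in the Gpnmb difference was not tested.

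**Figure D1:**
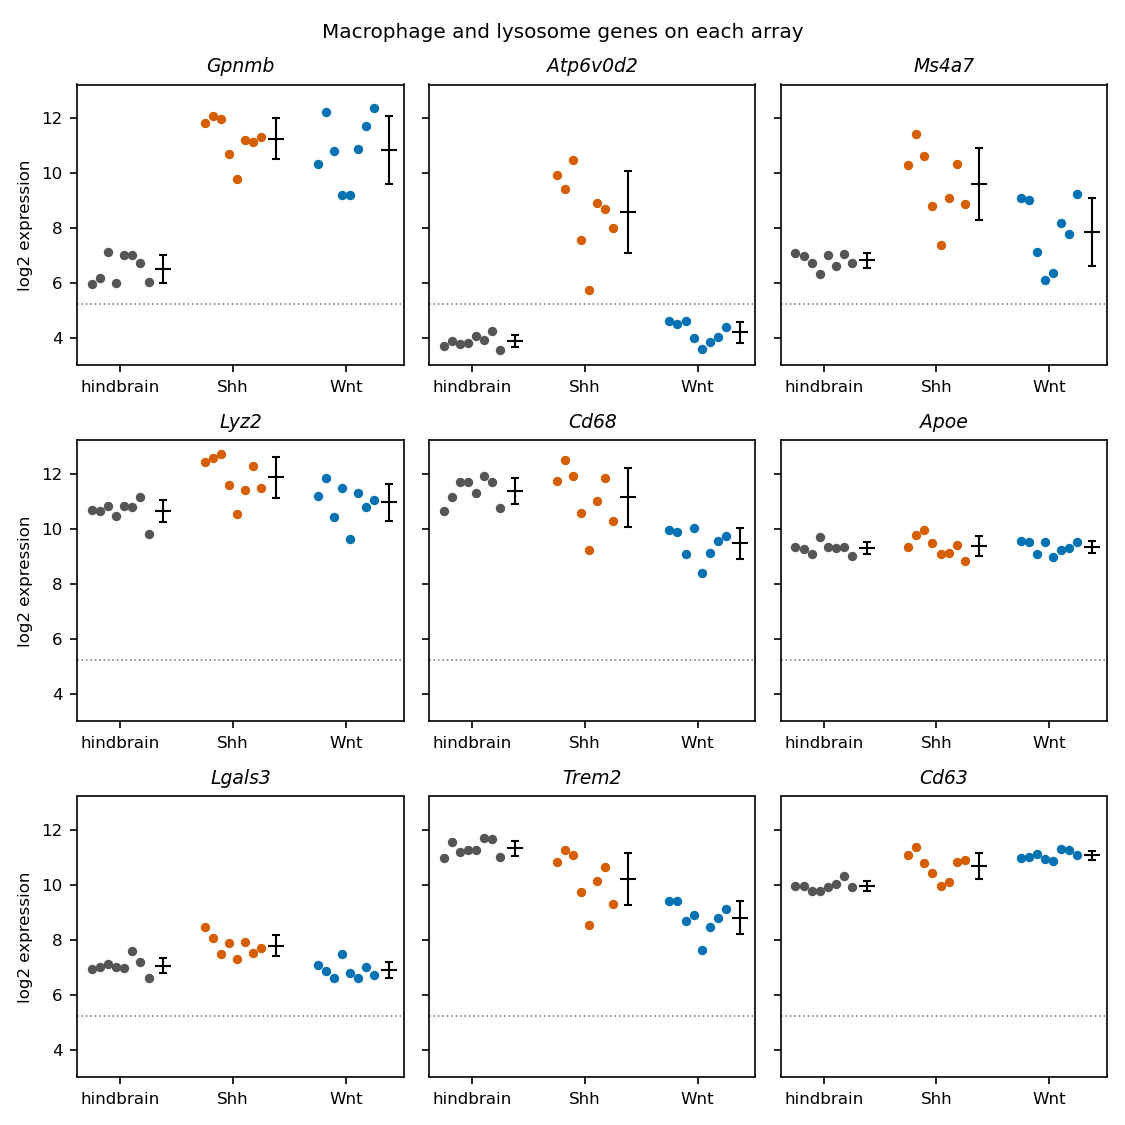
Deposited log2 expression (vertical axes) of the 9 measured genes on each of the 24 arrays, 1 point per array in order of replicate number, with the mean and SD of each group of 8 to the right of its points. The dotted line is the 95th percentile of the ERCC control probe sets (5.24); levels of different genes cannot be set against each other. Gpnmb is higher in both tumours than in hindbrain without overlap, Atp6v0d2 in Shh alone, and Trem2 and Cd68 are lower in Wnt than in hindbrain without overlap.

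Atp6v0d2 encodes the d2 form of a subunit of the membrane part of the V-ATPase, known from osteoclasts, macrophages and kidney. Its values in hindbrain were 3.55, 3.85 and 4.26 (lowest, median and highest), and in Wnt arrays 3.58, 4.22 and 4.63, all within the range of the control probe sets. In Shh arrays they were 5.74, 8.79 and 10.45. Every Shh array thus exceeded every array of the other 2 groups, while 4 of 8 Wnt arrays lay above the highest hindbrain array. The fitted differences, 4.70 ± 0.42 between Shh and hindbrain and -4.38 ± 0.42 for Wnt minus Shh, are against groups not above background. Set against the 95th percentile of the control probe sets in their place, the Shh mean was higher by 3.34, at least 10.1-fold. The spread within Shh was wide, with an SD of 1.49 and replicate 5 as the lowest array.

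Other V-ATPase genes showed no step of this size. In Shh against hindbrain, 0 of 22 were higher (2 at an unadjusted p under 0.05), 7 lower and 15 not called, beside 18.9% of all genes in each direction. Their median difference was -0.15, beside -0.02 for all genes. Atp6v0d1, the ubiquitous form of the same subunit, differed by 0.13 ± 0.06 (limma adjusted p = 0.0677), although it was called higher with quantile normalization, with a variance trend, and without hindbrain replicate 6, Shh replicate 6 or Shh replicate 8 (0.15 each). Atp6v1c1 fell by 0.67 ± 0.11 and Atp6v0a1 fell by 0.63 ± 0.08. In Wnt against hindbrain, 5 of 22 were higher and 6 lower, against 23.2% and 22.0% of all genes, with a median of -0.03. Tcirg1, the a3 subunit of lysosomes and osteoclasts, fell by 1.26 ± 0.15 there.

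**Figure D2:**
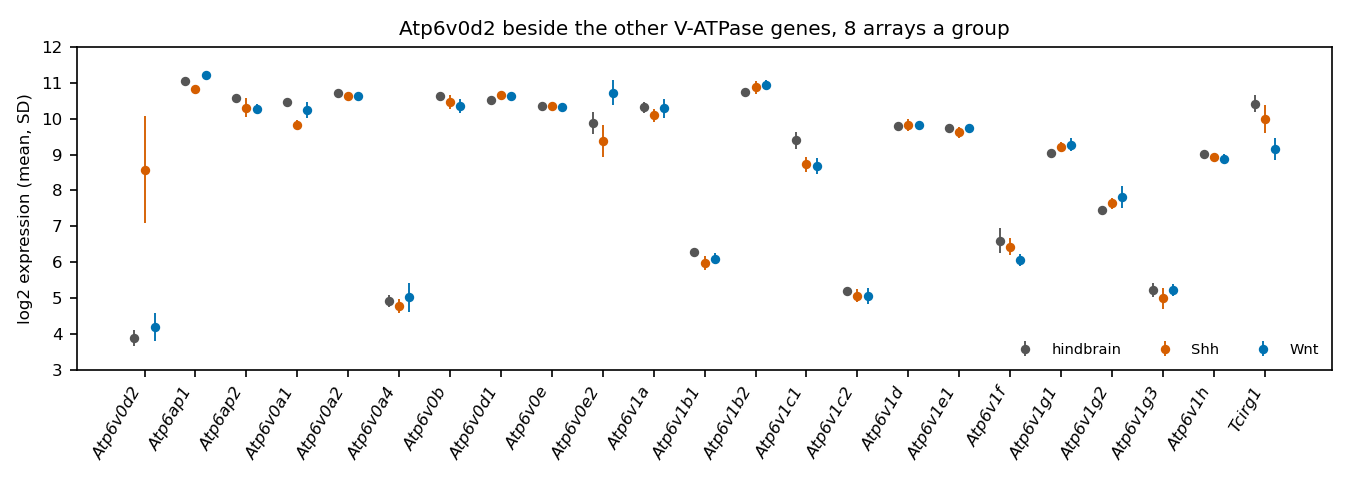
Mean log2 expression with SD over 8 arrays for Atp6v0d2 and for the 22 other V-ATPase genes measured, in hindbrain, Shh and Wnt. The Shh mean of Atp6v0d2 (8.58) stands apart from its hindbrain (3.88) and Wnt (4.20) means, while the group means of Atp6v0d1 are 10.53, 10.66 and 10.63.

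Because Atp6v0d2 is used as an osteoclast gene, 8 markers of osteoclasts were read beside it. In Shh arrays 3 were higher than in hindbrain, 2 lower and 3 not called, beside 18.9% of all genes each way. The 3 higher were the secreted or lysosomal enzymes Ctsk (1.59 ± 0.20), Mmp9 and Acp5 (1.24 ± 0.24), which macrophages can also express. Calcr, the calcitonin receptor, had group means of 5.28 to 5.33, close to the control probe sets. Nfatc1 had a hindbrain mean of 9.78 and was lower in both tumours, with -1.36 ± 0.11 in Shh and -1.31 ± 0.11 in Wnt. Which cells its RNA came from was not tested. The part of other cells in the Atp6v0d2 difference was not tested.

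Ms4a7, a tetraspan-like membrane protein of border and monocyte-derived macrophages, had the next largest Shh difference among the 9 genes after Gpnmb and Atp6v0d2. Hindbrain arrays had 6.34, 6.85 and 7.07 as the lowest, median and highest values. Shh arrays had 7.36, 9.69 and 11.40, all above hindbrain, and Wnt arrays had 6.10, 7.97 and 9.21. In Wnt, 6 of 8 arrays lay above the highest hindbrain array and 1 below the lowest, so the groups overlapped. Shh minus hindbrain was 2.77 ± 0.49, a 6.81-fold higher level, Wnt minus hindbrain 1.03 ± 0.49 and Wnt minus Shh -1.74 ± 0.49.

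Lyz2, the lysozyme of macrophages and neutrophils, had a hindbrain range of 9.79 to 11.17 with a median of 10.73. Its Shh arrays ran from 10.53 to 12.70 around 11.93, and 7 of 8 exceeded the highest hindbrain array, with replicate 5 inside the hindbrain range. Wnt arrays ran from 9.62 to 11.83 around 11.11 and overlapped hindbrain in both directions. The difference was 1.22 ± 0.29 in Shh and 0.31 ± 0.29 in Wnt, and Wnt minus Shh was -0.91 ± 0.29. Lyz1, a near-identical copy whose probes may read the same RNA, also was higher in Shh (0.98 ± 0.31, limma adjusted p = 0.0144), so the values of the pair are uncertain as to which copy they read. In the granulocyte list, whose cells also hold Lyz2, 3 of 10 markers were higher in Shh and 1 was lower, with a median of 0.19. Over all genes 18.9% were called each way, and the part of granulocytes was not tested.

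Cd68, a membrane glycoprotein of macrophage lysosomes, was lower in Wnt and overlapped hindbrain in Shh. Its hindbrain arrays had 10.64, 11.50 and 11.91 as the lowest, median and highest values, Shh arrays 9.24, 11.37 and 12.48, and Wnt arrays 8.39, 9.66 and 10.04. All 8 Wnt arrays lay below the lowest hindbrain array, whereas the Shh arrays fell on both sides of it. Wnt minus hindbrain was -1.88 ± 0.35 and Shh minus hindbrain -0.22 ± 0.35, a value that ran from -0.41 to 0.05 as each array was left out. Between the tumours, Wnt minus Shh was -1.66 ± 0.35, with 3 of 8 Wnt arrays below the lowest Shh array.

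Trem2 encodes the lipid receptor that signals through Tyrobp. It had values of 10.97, 11.24 and 11.69 in hindbrain, 8.53, 10.40 and 11.26 in Shh and 7.61, 8.85 and 9.42 in Wnt arrays. In Wnt no array reached the hindbrain range, and in Shh 6 of 8 lay below it. Trem2 differed by -2.51 ± 0.31 in Wnt, 5.71-fold lower, and by -1.13 ± 0.31 in Shh, while Wnt minus Shh was -1.39 ± 0.31. Tyrobp fell by 1.90 ± 0.33 in Wnt (limma adjusted p = 2.95e-05), and in Shh its difference of -0.51 did not pass (adjusted p = 0.231). Of 12 genes of Trem2 and Csf1r signalling, 8 fell and 1 rose in Wnt, and 7 fell and 1 rose in Shh, with medians of -1.16 and -1.03. Over all genes 22.0% fell and 23.2% rose in Wnt, and 18.9% went each way in Shh. Plcg2, a phospholipase downstream of Trem2, fell in both, with -2.33 ± 0.21 in Wnt and -1.75 ± 0.21 in Shh.

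Cd63, a tetraspanin of late endosomes and exosomes found in many cell types, was higher in both tumours. Its hindbrain values were 9.76, 9.94 and 10.32, its Shh values 9.95, 10.79 and 11.36, and its Wnt values 10.87, 11.03 and 11.31. The Wnt arrays were tightly grouped above every hindbrain array, and 6 of 8 Shh arrays exceeded that range. Differences from hindbrain were 1.10 ± 0.15 in Wnt and 0.71 ± 0.15 in Shh, and Wnt minus Shh was 0.39 ± 0.15 with the tumours overlapping. Among 9 other tetraspanins, 2 rose and 5 fell in Wnt, and 3 rose and 2 fell in Shh, where the shares of all genes were 23.2% and 22.0% in Wnt and 18.9% each way in Shh. In Wnt Tspan3 rose by 1.42 ± 0.09 and Cd37, a leukocyte tetraspanin, fell by 2.60 ± 0.25.

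Lgals3, the sugar-binding galectin-3, had hindbrain values of 6.62, 7.01 and 7.59, Shh values of 7.31, 7.78 and 8.45 and Wnt values of 6.62, 6.82 and 7.48. Of the Shh arrays, 5 of 8 exceeded the hindbrain range, and 6 of 8 Wnt arrays lay within it. Its difference was 0.73 ± 0.15 in Shh and -0.16 ± 0.15 in Wnt, and Wnt minus Shh was -0.89 ± 0.15. Lgals1, a galectin of many cell types including vessels, rose in both tumours, by 2.47 ± 0.16 in Wnt and 1.78 ± 0.16 in Shh. It was the single one of 8 other galectins called higher in either, while 4 fell in Wnt and 2 in Shh. Over all genes 23.2% were higher and 22.0% lower in Wnt, and 18.9% each way in Shh.

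Apoe, which encodes an apolipoprotein made by astrocytes and macrophages, had overlapping levels in every group. The lowest, median and highest values were 8.99, 9.32 and 9.70 in hindbrain, 8.83, 9.37 and 9.96 in Shh and 8.98, 9.40 and 9.56 in Wnt arrays. Its differences were 0.09 ± 0.13 in Shh and 0.05 ± 0.13 in Wnt. Astrocyte markers moved in Shh, where 5 of 12 were higher and 1 lower with a median of 0.69, beside 18.9% of all genes each way. Their part in the Apoe level was not tested. Cholesterol exporters that load Apoe rose in both tumours: Abca1 by 1.83 ± 0.10 in Shh and 0.90 ± 0.10 in Wnt, and Abcg1 by 2.34 ± 0.11 and 1.18 ± 0.11. Both are also expressed by endothelium.

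Counted over the 9 genes, 3 were higher in Shh than in hindbrain without overlap of the groups (Gpnmb, Atp6v0d2, Ms4a7) and 0 lower, where 7.13% of all genes were higher and 5.55% lower in that way. In Wnt 2 were higher (Gpnmb, Cd63) and 2 lower (Cd68, Trem2), beside 10.6% and 9.42% of all genes. Between the tumours, Atp6v0d2 was lower in Wnt without overlap and 0 genes were higher, beside 4.32% and 5.80%. The median of the 9 differences was 0.73 in Shh and 0.31 in Wnt. As the genes were chosen from these comparisons, the counts support nothing further, and both tumours were set against the same hindbrain arrays.

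The myeloid gene lists moved differently from one another. Of 12 homeostatic microglia genes, 11 were lower in Shh and 12 in Wnt, beside 18.9% and 22.0% of all genes, with medians of -2.59 and -2.60. P2ry12, the ADP receptor of resting microglia, fell in both, with -2.94 ± 0.37 in Shh and -3.45 ± 0.37 in Wnt. Tmem119, a microglial membrane protein, stood at -2.69 ± 0.22 in Shh and -1.72 ± 0.22 in Wnt, and Siglech, a sialic acid receptor of microglia, at -4.83 ± 0.27 and -3.95 ± 0.27. Fcrls, the gene not called in Shh, stood at 1.05 ± 0.45 there (limma adjusted p = 0.0659) and at -1.23 ± 0.45 in Wnt. Of the 18 pan-myeloid genes, 13 were lower in Shh and 18 in Wnt, beside the same 18.9% and 22.0%, with medians of -0.92 and -1.71. Csf1r, the growth factor receptor macrophages depend on, was among them at -2.27 ± 0.32 and -2.32 ± 0.32.

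By contrast, 11 of 21 genes of border and monocyte-derived macrophages were higher in Shh and 1 lower (median 0.77), beside 18.9% of all genes each way. In Wnt 5 were higher and 1 lower (median 0.28), beside 23.2% and 22.0%, so the rises there were near the share of all genes. Ms4a4a rose by 2.41 ± 0.39 in Shh and 1.73 ± 0.39 in Wnt, and Tgfbi, a secreted matrix protein of monocytes, by 1.53 ± 0.27 and 0.95 ± 0.27. Ly6c2, the gene called lower, stood at -0.88 ± 0.31 in Shh and -1.97 ± 0.31 in Wnt. In Shh, Mrc1 (-0.08), Cd163 (-0.26), Lyve1 (-0.38), F13a1 (-0.45), Cbr2 (-0.67) and Pf4 (0.03) were not called. Of 21 genes of lipid-associated macrophages, 9 rose and 1 fell in Shh (median 0.70), beside 18.9% of all genes each way. In Wnt 7 rose and 5 fell (median -0.02), beside 23.2% and 22.0%, so the falls there were near the share of all genes. Igf1 rose in both, by 2.40 ± 0.32 in Shh and 2.98 ± 0.32 in Wnt. Of 10 fibroblast markers, 8 were higher and 1 lower in each tumour, with medians of 1.49 in Shh and 2.10 in Wnt. The shares of all genes were 18.9% each way in Shh, and 23.2% and 22.0% in Wnt. The part of fibroblasts and other cells in the Igf1 difference was not tested. Itgax, the integrin CD11c, rose by 1.06 ± 0.29 in Shh and fell by 1.44 ± 0.29 in Wnt, with Wnt minus Shh at -2.51 ± 0.29 (limma adjusted p = 1.45e-07). Between the tumours, 10 of these 21 genes were lower in Wnt and 1 higher, where 17.8% and 18.0% of all genes were called. Fabp5, a fatty acid carrier, rose by 3.49 ± 0.22 in Shh and 5.87 ± 0.22 in Wnt, and is also expressed by vessel cells.

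**Figure D3:**
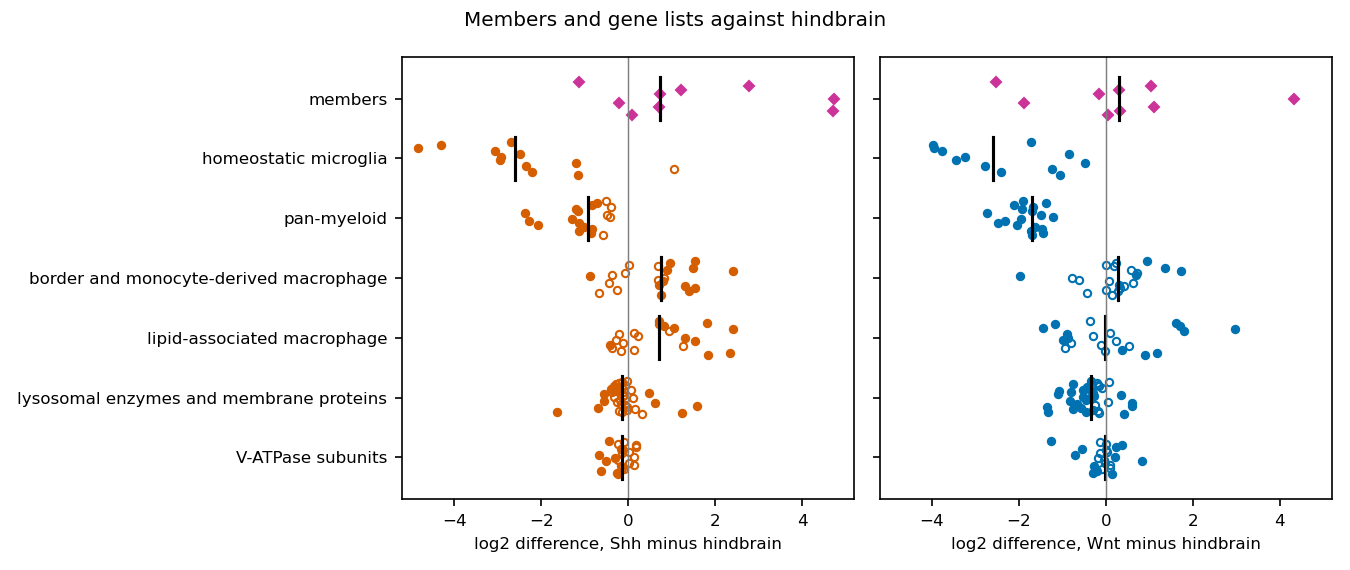
Log2 differences from hindbrain (horizontal axes) in Shh on the left and Wnt on the right, 1 point per gene. Diamonds are the 9 members, shown without a test; filled circles are list genes called by limma at adjusted p under 0.05, open circles are not called, and black bars are medians. Homeostatic microglia genes lie to the left in both tumours (medians -2.59 and -2.60), except Fcrls in Shh (1.05). Border and monocyte-derived macrophage genes lie mostly to the right in Shh (median 0.77).

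Of 36 lysosomal enzymes and membrane proteins, 4 rose and 21 fell in Wnt (median -0.35), beside 23.2% and 22.0% of all genes. In Shh 4 rose and 7 fell (median -0.14), a share of falls near the 18.9% of all genes. With array weights, or without Shh replicate 2, 12 rather than 7 were lower in Shh. Fuca1, which removes fucose, rose in both, by 0.62 ± 0.11 in Shh and 0.60 ± 0.11 in Wnt, and Arsb, a sulfatase, fell in both, with -1.64 ± 0.17 and -1.34 ± 0.17. Ctsh, a cathepsin, fell by 1.36 ± 0.10 in Wnt, stood at -0.02 in Shh and differed between the tumours (Wnt minus Shh -1.34 ± 0.10, limma adjusted p = 7.45e-11). Of the 4 transcription factors of the Mitf and Tfe family, Tfec rose by 1.74 ± 0.35 in Shh (limma adjusted p = 0.000357), with 0.25 in Wnt (adjusted p = 0.616) and Wnt minus Shh at -1.50 (adjusted p = 0.00154). The Tfec means in hindbrain (5.22) and Wnt (5.46) were near the 95th percentile of the control probe sets (5.24). Its Shh arrays had an SD of 1.27 and overlapped both other groups. Tfeb fell in both, with -0.50 ± 0.09 in Shh and -0.81 ± 0.09 in Wnt, Tfe3 fell by 0.37 ± 0.08 in Shh, and Mitf fell by 0.70 ± 0.19 in Wnt. Of the 4, 1 thus rose and 2 fell in Shh, beside 18.9% of all genes each way. In Wnt 0 rose and 2 fell, beside 23.2% and 22.0%.

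Receptors of Spp1 and Apoe could be read although Spp1 could not. Of 13, 7 rose and 1 fell in Shh, beside 18.9% of all genes each way, and 5 rose and 2 fell in Wnt, beside 23.2% and 22.0%. Cd44, which binds osteopontin, rose by 0.93 ± 0.18 in Shh and 1.84 ± 0.18 in Wnt. Itga4, an integrin chain of leukocytes, rose by 2.23 ± 0.20 in Shh, while 0.35 in Wnt was not called, except without Wnt replicates 1 and 8, which have the lowest endothelial marker means (0.56). Lrp8, an Apoe receptor, rose by 0.63 ± 0.20 in Shh and fell by 1.82 ± 0.20 in Wnt.

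Since pan-myeloid RNA was lower in the tumours, each gene was also set relative to the mean of the 18 pan-myeloid genes on its own array, a scale chosen after the values had been seen. On it the difference of Gpnmb from hindbrain was 5.80 in Shh and 6.15 in Wnt, and that of Atp6v0d2 in Shh 5.77. For Atp6v0d2 in Wnt no value is read, since it was within the control range in both groups and only the myeloid mean moved. Ms4a7 stood at 3.84 and 2.86, Lyz2 at 2.29 and 2.13, Cd63 at 1.78 and 2.93, Lgals3 at 1.80 and 1.67, and Apoe at 1.16 and 1.87. Cd68 stood at 0.85 in Shh and -0.057 in Wnt, and Trem2 at -0.057 and -0.69. Trem2 in Wnt was therefore the one gene and tumour whose arrays all lay below hindbrain on this scale, and Cd68 in Shh, Apoe and Ms4a7 in Wnt, Cd63 in Shh, and Lyz2 and Lgals3 in both tumours went from overlap with hindbrain to higher without overlap. Subtracting a mean that is lower in a tumour raises the difference from hindbrain of every gene there by the same amount. A gene with almost no change of its own is thereby moved up, as Apoe in Wnt went from 0.05 to 1.87. The share of all genes moved past hindbrain in this way was not computed. These values are therefore not read as more RNA per macrophage. Between the tumours on this scale, Atp6v0d2 alone of the 9 did not overlap, lower in Wnt.

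Variation inside a group was not used to choose the genes and was tested against the pan-myeloid mean of each array, over 8 arrays a group, in 27 relations. By exact permutation of the pairings, 15 had an adjusted p under 0.05 for Pearson's r (7 in Shh, 5 in Wnt and 3 in hindbrain) and 8 for Spearman's rho. The share of all genes that would pass was not computed, so these counts are not read as particular to the listed genes. Trem2 followed the pan-myeloid mean in each group. In Shh its r was 0.963 and rho 0.952 (exact permutation p = 0.000198 and 0.00114, adjusted 0.00415 and 0.0103), and r was 0.895 without the 2 arrays farthest from the median. In Wnt r was 0.944 and rho 0.952 (exact p = 0.00131 and 0.00114, adjusted 0.00591 and 0.0103), and 0.804 without those 2. In hindbrain r was 0.925 and rho 0.952 (exact p = 0.00166 and 0.00114, adjusted 0.00641 and 0.0103), and 0.832 without them.

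Gpnmb gave r = 0.912 and rho = 0.762 in Shh (exact permutation p = 0.0027 and 0.0368, adjusted 0.00811 and 0.0884), with r = 0.709 without replicates 2 and 5. In Wnt its r of 0.627 and rho of 0.595 did not pass (exact p = 0.0948 and 0.132, adjusted 0.141 and 0.188), and r was 0.193 without the 2 farthest arrays. Atp6v0d2 in Shh gave r = 0.902 and rho = 0.786 (exact p = 0.00313 and 0.0279, adjusted 0.00844 and 0.0838), with r = 0.830 without the same replicates. For Ms4a7 in Shh r was 0.953 and rho 0.857 (exact p = 0.00062 and 0.0107, adjusted 0.00415 and 0.0362), and r was 0.866 on the other 6 arrays. Apoe in Wnt gave r = 0.911 and rho = 0.905 (exact p = 0.000769 and 0.00456, adjusted 0.00415 and 0.0176), with r = 0.859 on 6 arrays. Cd63, found in many cell types, had r = 0.810 and rho = 0.738 in Shh (exact p = 0.0144 and 0.0458, adjusted 0.0259 and 0.0884), and r was 0.507 without replicates 2 and 5. Several of these genes did not pass in other groups. There r was 0.165 in Wnt and 0.320 in hindbrain for Cd63, and 0.694 in Shh and 0.265 in hindbrain for Apoe. Ms4a7 passed in Wnt by r (0.809) but not by rho (0.714), and had r = -0.261 in hindbrain. Lgals3 passed in hindbrain (r = 0.867) but not in Shh (0.638) or Wnt (0.233). The arrays left out lie farthest from the median of the pan-myeloid mean, so leaving them out narrows its range, which can itself lower r. Whether r differed between groups was not tested.

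**Figure D4:**
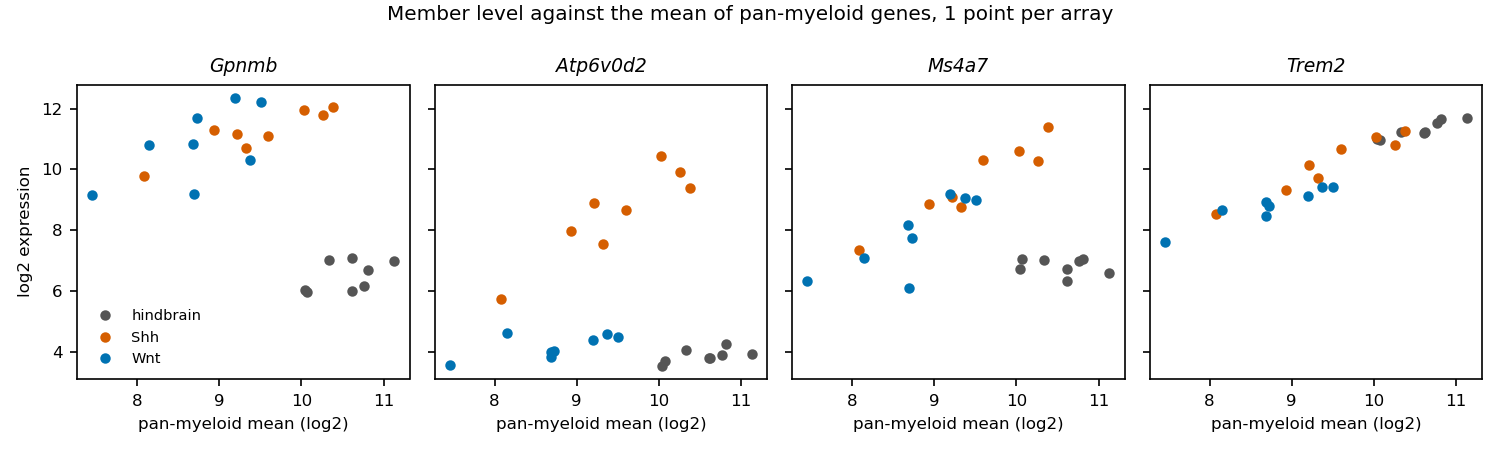
Log2 expression of Gpnmb, Atp6v0d2, Ms4a7 and Trem2 (vertical axis) against the mean log2 expression of 18 pan-myeloid genes (horizontal axis), 1 point per array, coloured by group. Trem2 follows the myeloid mean in every group (r of 0.925, 0.963 and 0.944 in hindbrain, Shh and Wnt), while Gpnmb is higher in both tumours although their myeloid mean is lower.

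The genes whose deviations from the group means were most like each member over the 24 arrays are named as a description; the arrays share their myeloid content. For Trem2 they were Cd84 (r = 0.967), Tyrobp (0.960) and Slc11a1 (0.958). For Cd68 they were C3ar1 (0.940), C1qa (0.936) and Fcer1g (0.932), and for Ms4a7 Ms4a14 (0.923), Adgb (0.908) and P2ry13 (0.905). Lyz2 was most like Man2b1 (0.906), Msr1 (0.902) and C1qb (0.899), and Atp6v0d2 like Ctsd (0.872), Igf1 (0.867) and P2rx4 (0.852). The values for Atp6v0d2 rest mainly on the Shh arrays, where its SD was 1.49, against 0.22 in hindbrain and 0.39 in Wnt. Cd63 was most like Lrp1 (0.883), Fabp5 (0.880) and Lamp1 (0.873). The values were lower for Gpnmb, with Akr1b10 (0.815), Ahnak2 (0.793) and Olfml3 (0.791), for Apoe, with Nlrc4 (0.824), Lrrc25 (0.773) and Parvg (0.747), and for Lgals3, with Gpr35 (0.774), Rbpj (0.760) and Cd80 (0.754).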

How the data were processed

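Affymetrix mouse arrays gave 1 log2 value per probe set and array, as deposited by the authors; the scale was read from the values. Partek 6.6 is named in the submitters' processing notes with no role, and the summarisation and normalization were not given in the sources used here. Probe sets were named from the platform annotation: of 41345, 23521 had 1 gene symbol, 23328 of those (99.2%) matched a RefSeq gene ID, and 1814 had several symbols. For each gene the brightest probe set over all arrays was taken, and each of the 9 measured genes had 1 probe set. Array medians ran from 5.96 to 6.18, and precision is set by the number of arrays. limma 3.58.1 in R 4.3.3 was fitted to the 24 arrays with group as the factor (21 residual degrees of freedom), with Benjamini-Hochberg adjustment over 22180 genes, two-sided. The fit was tested on simulated data. Members and lists were chosen with earlier results of these data known. From each list, named genes were among up to 3 largest called rises and falls, plus a fixed set and the 3 genes most alike each member. The text names part of them. It also names Tyr, Calcr, Nfatc1, Mmp9, Fcrls, Cd163, Lyve1, F13a1, Cbr2 and Pf4, chosen after their values were seen. Correlations used two-sided exact permutation. Alternatives were other probe set summaries, scalings, weights, filters, a replicate block, the compared groups alone, marker reference levels and leaving out arrays.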

Additional observations from a re-analysis of the deposited data

Results flagged for a closer look

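In 3 of 153 sets checked, the highest or lowest of 8 arrays lay farther from its nearest neighbour, relative to the range of its group, than the limit of Dixon's test, which chance passes in about 1 of 20 groups. Tfec in hindbrain replicate 4 had a log2 value of 4.863, below the next array at 5.166. Itgax in Wnt replicate 2 stood at 6.485, above the next at 5.807. The mean of the astrocyte markers in Shh replicate 3 was 7.442, below the next at 8.145.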

How the results depend on the processing

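The median difference of the 9 genes kept its direction under the alternatives run. Relative to the endothelial marker mean it moved to 1.36 for Wnt minus hindbrain and -0.043 for Wnt minus Shh. Relative to the pan-myeloid mean it moved to 2.13 for Wnt and 1.80 for Shh against hindbrain, and to -0.16 between the tumours. These moves include the shift that a lower marker mean gives to every gene. With arrays shifted to the same median, 3 V-ATPase genes were lower in Wnt than in hindbrain instead of 6, and 5 instead of 3 were higher in Wnt than in Shh. With array weights 12 lysosomal genes were lower in Shh instead of 7. Leaving out 1 array at a time gave 7 to 12 there, the highest without Shh replicate 2, and 6 to 15 pan-myeloid genes lower in Wnt than in Shh, where the main count was 7 and the highest came without Shh replicate 5. The cause was not tested. Over the same left-out arrays the median of the 9 genes ran from 0.18 to 0.41 (Wnt minus hindbrain), 0.66 to 0.82 (Shh minus hindbrain) and -1.11 to -0.83 (Wnt minus Shh). Arrays of the same replicate number had correlations from -0.146 to 0.282, with 3 of 24 over 0.1. Different numbers were not compared, so pairing by number was not settled. Replicate 5 had the lowest and replicate 2 the highest pan-myeloid mean in both Shh and Wnt. With the replicate block the median was 0.31 for Wnt minus hindbrain, with no such count moved past 1.5 times. Signal near the control probe sets limits Atp6v0d2 in hindbrain and Wnt.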
